A study of Mus musculus with 10 samples.

Results

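Autophagy is the route by which a cell encloses its own cytoplasm and organelles in a double membrane, the autophagosome, and delivers them to the lysosome for breakdown. A kinase complex and a lipid kinase complex start the membrane, ubiquitin-like conjugation systems attach the Map1lc3 and Gabarap proteins to it, receptors bring in the cargo, and lysosomal hydrolases digest what arrives. Mitophagy is the same route with mitochondria as the cargo. In skeletal muscle these genes are known to be raised in fasting and in wasting by transcription factors of the FoxO family, and lysosomal genes in many tissues by Tfeb, which binds E-box sequences.

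The mRNA of 36 genes of this route was examined in gastrocnemius, a calf muscle, of D257A and WT mice. The genes were taken by name and not by a cut on their values, though with earlier results of these data known. Each was measured by the probe sets of the Affymetrix Mouse Genome 430 2.0 array that name it alone. Such probe sets were found for 34 of the 36 genes, 84 probe sets in all, out of 18193 genes and 45037 probe sets on the array outside the spike controls. Optn, a cargo receptor, was not named by the probe annotation used here, and the probe sets of Bnip3l, a mitophagy receptor, also name its pseudogene, so neither was analysed here. Of the 34 genes, 10 act in initiation, 12 in conjugation, 2 as receptors, 3 in mitophagy and 7 in the lysosome.

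The 5 D257A mice were homozygous, in every cell of the body, for the D257A form of Polg, a mitochondrial DNA polymerase that copies but cannot proofread. The 5 WT mice carried Polg+/+, and all 10 mice were 13-month-old males with 1 array each and no pooling. The line was of mixed 129Sv/ICR/B6 origin and was later backcrossed into C57Bl/6J. A protocol line of the labels names cochlea as the RNA source, but the 14 muscle fibre markers had summed signals of 521000 to 682900 in every mouse, against 374.5 to 578.7 for 6 cochlea markers, and 3 of those 6 were too dim to be tested. Values are scaled signals in arbitrary units, the deposited intensity of a probe set after each array was brought to the same trimmed mean. They are compared between mice for 1 probe set, not between genes, since probes differ in brightness. A log2 fold change is the D257A mean less the WT mean, given with its standard error (SE) from limma and taken from a gene's brightest probe set unless another is named. Adjusted p is Benjamini-Hochberg's over all 22518 tested probe sets. A gene was called at an adjusted p under 0.05. In whole muscle, fewer cells of a type and less RNA per cell cannot be told apart.

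Among the WT mice, 1-13M and 3-18M most often held the extremes. Of the 34 genes, 1-13M gave the highest signal of all 10 mice on 11 and the lowest on 5. For the 34 genes by their brightest probe sets, calls that turn on 1-13M are given with and without it. WT mouse 3-18M gave the highest signal of the 10 on 5 genes and the lowest on 14. After scaling, the median of an array's log2 signals was 6.36 ± 0.06 (D257A) and 6.49 ± 0.05 (WT; SD, n = 5 each, 2-sided exact permutation p = 0.0238). Centring each array on that median in place of its trimmed mean moved the median fold change of all tested probe sets from -0.03 to 0.10 (log2) and turned 10 of the 15 negative genes positive: Atg13, Atg9a, Atg3, Atg5, Atg7, Atg10, Gabarap, Fundc1, Pink1 and Lamp1. The log2 ratio of 3' to 5' control probe sets, which follows RNA quality, was -0.32 ± 0.04 and -0.30 ± 0.09 (SD, n = 5 each, 2-sided exact permutation p = 0.651).

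The bases before the start sites show what sequence the genes at the centre of the comparison carry. RefSeq windows of build GRCm38.p6 were at hand for 27 of the 34 genes, and the 250 bases before each start were searched on both strands. The E-box CACGTG, which reads the same on both strands, was in 6.02% of all 32851 windows of the same length. Counted by gene and not by window, over 30 windows, it was found in 8 of the 27 genes. These were Atg3, Atg5, Atg7, Bnip3, Ctsd, Ctsl, Gaa and Lamp1, that is 4 of 6 lysosome genes, 3 of 9 conjugation genes, 1 of 3 mitophagy genes, 0 of 7 initiation genes and 0 of 2 receptors. The longer form TCACGTGA, which contains the E-box, was found in Atg3 and Ctsd, against 0.785% of windows. The FoxO sequence GTAAACA or its complement TGTTTAC was found in 0 of 27 genes, against 3.17% of windows. At that share, 0 hits in 30 windows say little about absence. The windows of 9 genes, Atg5, Atg7 and Ctsl among them, overlap the gene's own model, since the annotated start used lies inside it. Of the 18 genes with a window wholly outside, 5 held an E-box. The window of Ctsl lies wholly inside its gene model and is not printed. Windows of some other genes that the text returns to are printed 5′ to 3′ with E-boxes in capitals, for 3 genes with an E-box and 2 without.
Lamp1: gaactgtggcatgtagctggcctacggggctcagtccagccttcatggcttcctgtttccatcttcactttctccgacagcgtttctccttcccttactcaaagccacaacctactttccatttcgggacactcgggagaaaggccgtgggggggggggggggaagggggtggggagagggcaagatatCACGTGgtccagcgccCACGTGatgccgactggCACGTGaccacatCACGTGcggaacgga
Ctsd: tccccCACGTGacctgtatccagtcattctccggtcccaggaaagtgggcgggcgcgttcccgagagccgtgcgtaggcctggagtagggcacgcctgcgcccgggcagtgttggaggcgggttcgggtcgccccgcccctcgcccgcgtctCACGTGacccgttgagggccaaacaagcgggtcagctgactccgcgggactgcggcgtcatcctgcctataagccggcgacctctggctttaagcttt
Bnip3: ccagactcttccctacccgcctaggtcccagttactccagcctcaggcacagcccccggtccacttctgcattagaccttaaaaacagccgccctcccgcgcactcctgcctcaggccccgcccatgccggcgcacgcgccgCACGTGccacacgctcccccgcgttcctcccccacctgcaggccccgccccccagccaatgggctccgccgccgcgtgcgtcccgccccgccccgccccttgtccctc
Lamp2: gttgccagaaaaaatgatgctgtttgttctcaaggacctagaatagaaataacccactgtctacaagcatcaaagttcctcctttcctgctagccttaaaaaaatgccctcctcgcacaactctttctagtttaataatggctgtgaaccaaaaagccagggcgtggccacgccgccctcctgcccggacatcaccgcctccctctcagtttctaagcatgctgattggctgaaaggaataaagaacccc
Map1lc3b: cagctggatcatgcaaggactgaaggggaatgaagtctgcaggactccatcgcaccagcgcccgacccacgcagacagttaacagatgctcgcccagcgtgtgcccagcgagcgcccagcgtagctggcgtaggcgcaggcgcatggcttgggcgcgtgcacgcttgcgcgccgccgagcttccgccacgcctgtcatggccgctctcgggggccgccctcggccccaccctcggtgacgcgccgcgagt

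The window of Lamp1 (chr8:13158911-13159160, plus strand) held 4 E-boxes, whose first bases lie 61, 45, 28 and 15 bases before the start. That of Ctsd (chr7:142387828-142388077, minus strand) held 2, at 245 and 98 bases, and that of Bnip3 (chr7:138909507-138909756, minus strand) held 1, at 108 bases. The windows of Lamp2 (chrX:38456461-38456710, minus strand) and Map1lc3b (chr8:121590188-121590437, plus strand) held none. Of the 8 genes with an E-box, Ctsl (0.97, the 1 called) and Bnip3 (0.28) had positive log2 fold changes, while Ctsd (-0.26), Gaa (-0.25), Lamp1 (-0.08), Atg5 (-0.05), Atg7 (-0.03) and Atg3 (-0.01) had negative ones. A match is a description of letters and not of a factor bound there.

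In gastrocnemius of D257A mice, 1 of the 34 genes rose and 0 fell. The gene that rose was Ctsl, the lysosomal protease cathepsin L, by 0.97 on the log2 scale (SE 0.22, adjusted p = 0.0173), or 1.96-fold. That is 2.94% of the genes, beside 3.71% of the 11216 genes tested that rose and 3.52% that fell. At an unadjusted p under 0.05, limma gave 4 genes higher (Ctsl, Map1lc3b, Lamp2 and Bnip3) and 0 lower by their brightest probe sets. The share of all genes at that threshold was not computed, so this count has no background and is not read as a shift. Every D257A mouse lay above every WT mouse for 1 gene, Lamp2, beside 3.93% of all genes, and below for 0, beside 3.47%. The median log2 fold change over the 34 genes was 0.03, against -0.01 over all genes, with 19 positive and 15 negative. For 28 of the 34, the 95% interval of the fold change lay within 1.5-fold either way, and the others were Ulk1, Map1lc3b, Gabarapl1, Ctsl, Ctsd and Gaa. By single probe sets, 3 of the 71 tested were higher (4.23%) and 0 lower, beside 3.64% and 3.74% of all probe sets. The 13 dim ones among the 84 were not tested. Of the 22 genes with several tested probe sets, 10 had probe sets of opposite sign.

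**Figure D1:**
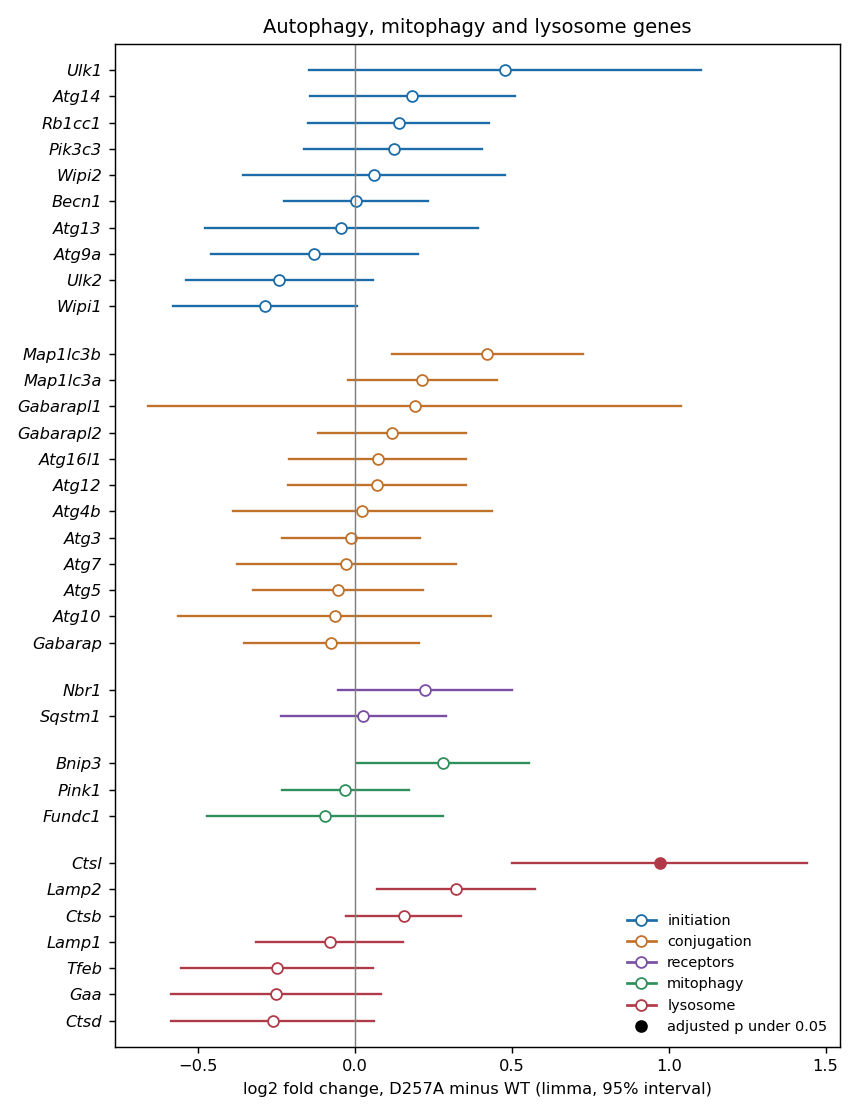
Log2 fold change of 34 genes (points, D257A minus WT, x axis) with limma's 95% interval (lines), grouped and coloured by role; a filled point marks an adjusted p under 0.05. Ctsl, at 0.97, is the filled point, and the intervals of Ctsl, Map1lc3b, Lamp2 and Bnip3 lie above 0 while the others cross it.

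Without WT mouse 1-13M, 4 genes rose and 1 fell. The mouse was set apart by its values on these same genes, so p-values without it are descriptive and not independent tests. Those that rose were Ctsl, Map1lc3b, Bnip3 and Lamp2, and Ulk2 fell. More genes of every kind were called in that comparison, 7.76% of all genes higher and 8.33% lower, so the larger count is read beside a larger background. The median over the 34 genes was 0.12 there. The medians by role, with all mice and without 1-13M, were 0.03 and 0.15 in initiation, 0.05 and 0.10 in conjugation, 0.13 and 0.22 in receptors, -0.03 and -0.08 in mitophagy, and -0.08 and -0.10 in the lysosome. Among genes called in neither comparison, Fundc1 (-0.26), Atg10 (-0.30), Lamp1 (-0.16) and Pink1 (-0.08) lay farther below 0 without 1-13M, and Gaa (-0.10), Ctsd (-0.16) and Atg5 (-0.03) nearer to it. Sqstm1 (0.15), Pik3c3 (0.23), Wipi2 (0.25), Atg4b (0.19) and Atg16l1 (0.15) lay farther above 0. The sign turned for Atg13 (0.13) and, close to 0, for Becn1, Atg3, Atg7 and Gabarap.

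**Figure D2:**
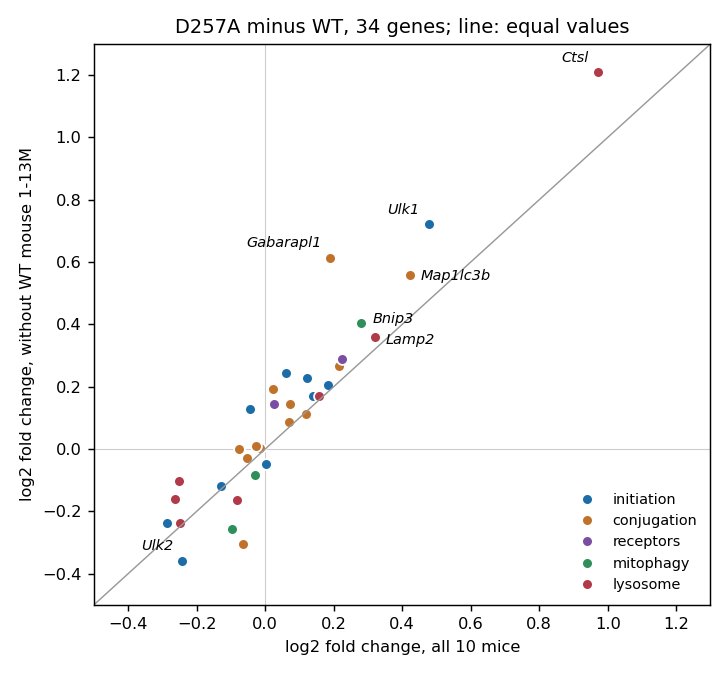
Log2 fold change of 34 genes (points, coloured by role) with all 10 mice (x axis) and without WT mouse 1-13M (y axis); the diagonal marks equal values. Gabarapl1 (0.19 to 0.61), Ulk1 (0.48 to 0.72) and Ctsl (0.97 to 1.21) lie farthest above the diagonal, and Ulk2 (-0.24 to -0.36) lies below it.

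Of the 10 initiation genes, none passed limma's test by its brightest probe set, adjusted or at an unadjusted p under 0.05. Log2 fold changes ran from -0.29 for Wipi1 to 0.48 for Ulk1. Dimmer probe sets of Wipi1, Becn1 and Ulk2 were lower at an unadjusted p under 0.05, none of them called. Ulk1, the kinase that starts autophagosome formation, had signals of 2482, 2992, 3176, 2367 and 6237 in D257A mice 2-17M, 2-21M, 2-25M, 2-27M and 2-30M. The WT mice 1-12M, 1-13M, 2-3M, 2-32M and 3-18M had 2050, 4533, 2037, 2389 and 1467. The groups overlapped, and 1 mouse of each genotype, 2-30M and 1-13M, stood far above its group. The log2 fold change of Ulk1 was 0.48 (SE 0.29, adjusted p = 0.346), and 0.72 without 1-13M (adjusted p = 0.0510). A dimmer probe set of Ulk1 had -0.15 (SE 0.36, adjusted p = 0.846), of opposite sign.

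Ulk2, the paralog of Ulk1, had 2740, 2834, 3369, 3408 and 3405 in the D257A mice and 4159, 2682, 3604, 3884 and 4493 in the WT mice, in the same order. The 4 WT mice other than 1-13M all lay above every D257A mouse. Its log2 fold change was -0.24 (SE 0.14, adjusted p = 0.316), and it fell by 0.36 without 1-13M (adjusted p = 0.0343). All 4 probe sets of Ulk2 were negative, from -0.31 to -0.21. Wipi1, which binds the lipid made at the start of the membrane, had -0.29 (SE 0.14, adjusted p = 0.225). Its signal was 2324 ± 469.4 (D257A) and 2803 ± 286.3 (WT; SD, n = 5 each), and all 5 of its tested probe sets were negative, none called. Becn1, a subunit of the lipid kinase complex, differed by 0.00 (SE 0.11) by its brightest probe set, with 3268 ± 249.6 and 3271 ± 373.7 (SD, n = 5 each). Its other probe sets had both signs, the lowest at -0.39 (SE 0.155, adjusted p = 0.145). Pik3c3, the lipid kinase itself, and Atg14, which directs it to autophagy, had 0.12 (SE 0.13) and 0.18 (SE 0.15). Rb1cc1 and Atg13, partners of Ulk1 in its complex, had 0.14 (SE 0.13) and -0.04 (SE 0.20). Wipi2, another lipid-binding protein, had 0.06 (SE 0.19), and Atg9a, a membrane protein that brings lipid, -0.13 (SE 0.15). Adjusted p was 0.505 or more for these 7 genes by their brightest probe sets.

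Of the 12 conjugation genes, none passed the test by its brightest probe set, with log2 fold changes from -0.08 for Gabarap to 0.42 for Map1lc3b. Map1lc3b, the protein most used as a marker of autophagosomes, had signals of 16220, 13730, 14780, 13970 and 18090 in the D257A mice, and 9060, 16720, 10660, 11100 and 10740 in the WT mice. All D257A mice were above the WT mice other than 1-13M, which lay among them. The log2 fold change was 0.42 (SE 0.14, adjusted p = 0.0881), and it rose by 0.56 without 1-13M (adjusted p = 0.00168). A dimmer probe set of Map1lc3b passed with all mice (0.37, SE 0.11, adjusted p = 0.0471), but that call ended on leaving out any mouse other than 1-13M (adjusted p = 0.0685 to 0.113).

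Gabarapl1, a relative of Map1lc3b on the autophagosome, had the largest SE of the 34 genes. Its signals were 4285, 3375, 4235, 2823 and 7945 in the D257A mice and 3720, 12040, 2429, 3078 and 2124 in the WT mice. The highest of the 10 was WT mouse 1-13M and the next D257A mouse 2-30M, the same pair as for Ulk1. Its fold change on the log2 scale was 0.19 (SE 0.40, adjusted p = 0.817), and 0.61 without 1-13M (adjusted p = 0.102) but -0.04 without 2-30M. Map1lc3a, a further relative, had 9311 ± 1022 (D257A) and 8042 ± 1042 (WT; SD, n = 5 each), a log2 fold change of 0.22 (SE 0.11, adjusted p = 0.262). The other probe set of Map1lc3a had -0.05 (SE 0.14). Gabarapl2 had 0.12 (SE 0.11) and Gabarap -0.08 (SE 0.13).

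By their brightest probe sets, the enzymes that carry out the conjugation were close to 0. Atg7, the activating enzyme of both conjugation systems, had -0.03 (SE 0.16), and Atg3 and Atg10, the transfer enzymes, -0.01 (SE 0.10) and -0.07 (SE 0.23). Atg5, Atg12 and Atg16l1, which together form the complex that places Map1lc3 on the membrane, had -0.05 (SE 0.13), 0.07 (SE 0.13) and 0.07 (SE 0.13), and Atg4b, the protease that primes Map1lc3, had 0.02 (SE 0.19). All 7 had an adjusted p of 0.789 or more and a 95% interval within 1.5-fold either way by these probe sets. Dimmer probe sets of Atg12 (-0.41, SE 0.21, adjusted p = 0.257) and Atg7 (-0.38, SE 0.21, adjusted p = 0.291) lay lower, with intervals reaching beyond 1.5-fold.

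**Figure D3:**
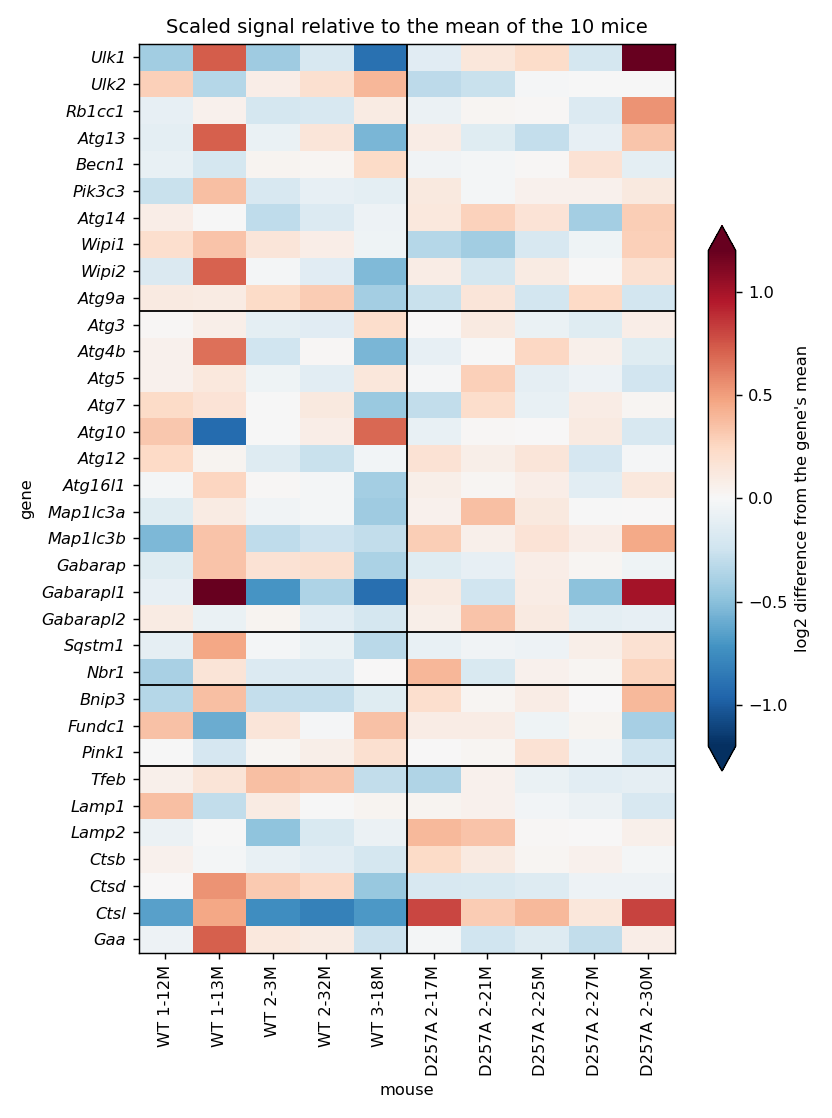
Log2 difference of each mouse's scaled signal from the gene's mean over the 10 mice (colour scale, values beyond its ends drawn in the end colour) for 34 genes (rows, by role) and 10 mice (columns, WT left and D257A right). WT mouse 1-13M and D257A mouse 2-30M are the reddest of the 10 for Ulk1 and Gabarapl1, while Ctsl is red in the D257A mice and 1-13M and blue in the other WT mice.

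Of the 2 receptors that tie ubiquitin-marked cargo to Map1lc3, neither passed. Sqstm1 had 19650, 20250, 19940, 21870 and 23710 in the D257A mice and 19290, 28760, 20550, 19740 and 16670 in the WT mice, a log2 fold change of 0.03 (SE 0.12, adjusted p = 0.922). The WT mice held both the highest and the lowest of its 10 values. Nbr1 had 5905 ± 927.7 and 5049 ± 714 (SD, n = 5 each), a log2 fold change of 0.22 (SE 0.13, adjusted p = 0.322), and its other probe set had -0.08 (SE 0.20).

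Of the 3 mitophagy genes, none passed with all mice. Bnip3, a receptor in the outer mitochondrial membrane that binds Map1lc3, had 26470, 23420, 24580, 23160 and 30140 in the D257A mice and 18210, 29600, 18900, 18900 and 20840 in the WT mice. As for Map1lc3b, every D257A mouse was above the WT mice other than 1-13M, which was second highest of the 10. The log2 fold change was 0.28 (SE 0.13, adjusted p = 0.199), and it rose by 0.41 without 1-13M (adjusted p = 0.00564). Fundc1, another receptor of that membrane, had 1795, 1799, 1637, 1732 and 1282 in the D257A mice and 2162, 1119, 1869, 1681 and 2160 in the WT mice. Its lowest values were in 1-13M and 2-30M, the pair that was highest for Ulk1 and Gabarapl1, and its log2 fold change was -0.10 (SE 0.18, adjusted p = 0.787). Pink1, the kinase that marks damaged mitochondria for removal, had 18930 ± 1941 (D257A) and 19330 ± 1872 (WT; SD, n = 5 each). Its log2 fold change was -0.03 (SE 0.10, 95% interval -0.23 to 0.17, adjusted p = 0.879).

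Of the 7 lysosome genes, 1 rose and 0 fell. Ctsl (chr13:64361890-64370772 in GRCm38.p6) had signals of 21040, 14860, 15760, 13230 and 21150 in the D257A mice and 7673, 16610, 7206, 6899 and 7490 in the WT mice. The other 4 WT mice lay between 6899 and 7673, below all D257A mice, whereas 1-13M lay among the D257A mice. The rise was 1.21 on the log2 scale without 1-13M (adjusted p = 5.26e-05). A second, dimmer probe set had 1.67 (SE 0.55, adjusted p = 0.0845), with every D257A mouse above every WT mouse. The call of the brightest one ended without D257A mouse 2-17M (0.89, adjusted p = 0.0529) and under the methods' t-test on log2 signals (adjusted p = 0.0897) and on linear signals (adjusted p = 0.114). In the mice whose number starts with 2, which are all the D257A mice and WT mice 2-3M and 2-32M, it rose by 1.26 (adjusted p = 0.00257).

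Lamp2, a lysosomal membrane protein needed for fusion with autophagosomes, had 8991, 8713, 6928, 6874 and 7146 in the D257A mice and 6550, 6865, 4930, 6062 and 6521 in the WT mice. The groups did not overlap, but the lowest D257A mouse lay just above WT mouse 1-13M. The log2 fold change was 0.32 (SE 0.12, adjusted p = 0.113), and it rose by 0.36 without 1-13M (adjusted p = 0.0465). All 4 of its probe sets were positive, from 0.07 to 0.45. The one at 0.45 passed (SE 0.13, adjusted p = 0.0492), and that call ended on leaving out any mouse other than 2-27M or 1-13M (adjusted p = 0.0563 to 0.126). Lamp1, its abundant relative, had -0.08 (SE 0.11, adjusted p = 0.707), with 12520 ± 821.5 (D257A) and 13370 ± 2155 (WT; SD, n = 5 each).

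The other lysosomal enzymes gave no call with all mice. Ctsb, cathepsin B, had 0.16 (SE 0.09, adjusted p = 0.295) by its brightest probe set and both signs among 4. Ctsd, cathepsin D, had 6097, 6132, 6276, 6688 and 6672 in the D257A mice and 6997, 10160, 8661, 8302 and 5074 in the WT mice. All WT mice but 3-18M were above the D257A mice, which differed little among themselves. The log2 fold change was -0.26 (SE 0.15, adjusted p = 0.319), and -0.41 without WT mouse 3-18M (adjusted p = 0.0361). Leaving out the lowest WT mouse widens the difference, so that p-value is descriptive and not an independent test. The comparison without 3-18M called 839 of the 22518 probe sets higher and 947 lower. Without 1-13M, the highest mouse for Ctsd, the log2 fold change was -0.16 (adjusted p = 0.448). Gaa, which breaks down glycogen in the lysosome, had -0.25 (SE 0.16, adjusted p = 0.357) and 0.19 (SE 0.22) by its 2 probe sets. Tfeb, the transcription factor of lysosomal genes, had 934.4 ± 95.33 (D257A) and 1119 ± 192.7 (WT; SD, n = 5 each), a log2 fold change of -0.25 (SE 0.14, adjusted p = 0.320).

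**Figure D4:**
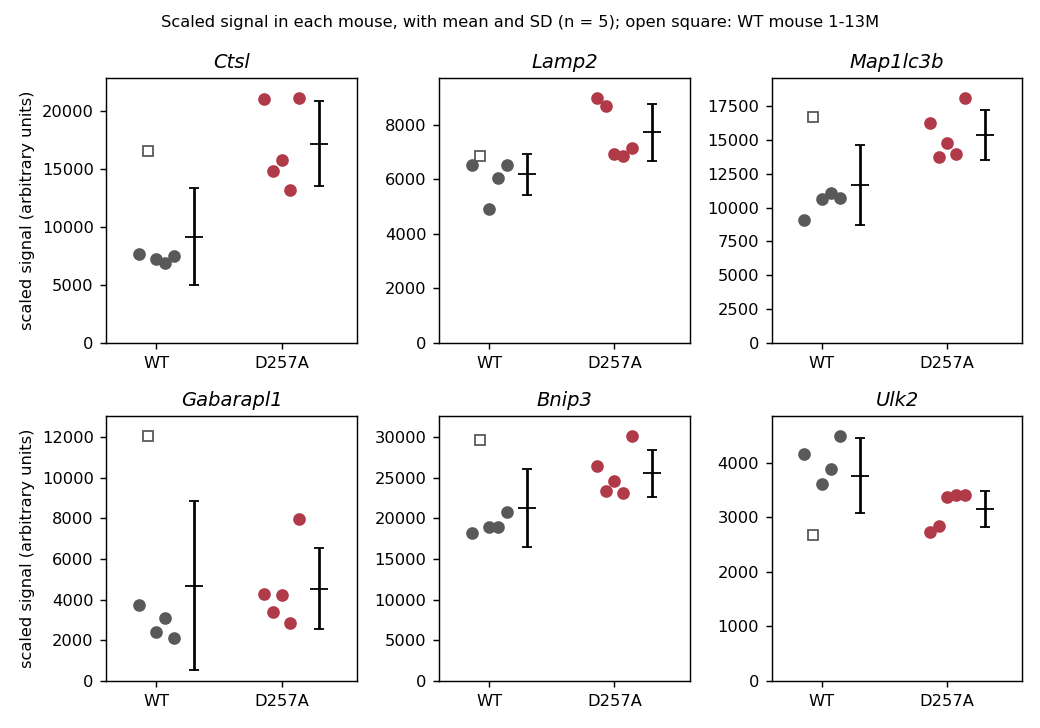
Scaled signal in arbitrary units (y axis, from 0) of 6 genes in each WT mouse (grey) and D257A mouse (red), with mean and SD (bars, n = 5); the open square is WT mouse 1-13M. In the panels of Ctsl, Map1lc3b and Bnip3 the open square lies among the D257A mice, and for Gabarapl1 it is the highest of the 10.

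The wider pathway was read from further gene lists. Counts of calls in these lists and in the marker lists below stand beside 3.71% of all genes that rose and 3.52% that fell. Counts at an unadjusted p under 0.05 have no such share beside them and only describe. Single genes without overlap stand beside 3.93% of all genes with every D257A mouse above and 3.47% with every one below. Of 27 other autophagy genes, 1 rose and 0 fell (median log2 fold change -0.06). It was Vmp1, a membrane protein of the endoplasmic reticulum needed for autophagosomes, at 0.39 (SE 0.09, adjusted p = 0.0251). Of 14 other mitophagy genes, 0 rose and 0 fell in limma (median -0.01), with 0 higher and 1 lower at an unadjusted p under 0.05. Of 15 subunits of the proton pump that acidifies the lysosome, 0 rose and 0 fell (median 0.02), with 1 higher and 1 lower unadjusted. Of 28 other lysosomal hydrolases and their helpers, 3 rose and 2 fell (median 0.05). Ctss, cathepsin S, rose by 0.82 (SE 0.13, adjusted p = 0.00308), with 1984, 1384, 1993, 1590 and 1913 in the D257A mice and 1092, 1086, 997.9, 857 and 973.3 in the WT mice. Here 1-13M lay with the other WT mice, unlike for Ctsl. Npc2, which exports cholesterol, rose by 0.58 (SE 0.11, adjusted p = 0.00847) and Ctsc, cathepsin C, by 0.60 (SE 0.16, adjusted p = 0.0336). Smpd1, the acid sphingomyelinase, fell by 0.51 (SE 0.13, adjusted p = 0.0281), and Ctsf, cathepsin F, fell by 0.67 (SE 0.19, adjusted p = 0.0411). Of 12 lysosomal membrane proteins, 0 rose and 1 fell, Tmem192 by 0.60 (SE 0.16, adjusted p = 0.0369; median of the list 0.04). The calls of Ctss and Npc2 held on leaving out each of the 10 mice, though no further scaling ended that of Npc2 (adjusted p = 0.0789). Without 1-13M, Tax1bp1, Epg5 and Rab7 of the autophagy genes were also called higher, as were Atp6v1a, Atp6v1h and Atp6v0e of the pump. The hydrolase Lgmn and the membrane protein Npc1 were too. Vdac1 and Dnm1l of the mitophagy genes were then called lower (adjusted p = 0.0112 to 0.0416 over these genes). That comparison called 7.76% of all genes higher and 8.33% lower.

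The call of Vmp1 ended without any 1 of 2-17M, 2-25M, 2-27M, 2-30M, 1-12M or 2-3M (adjusted p = 0.0535 to 0.0704). For Ctsc the mice were 2-17M, 2-25M, 2-27M, 1-12M, 2-3M and 2-32M (0.0545 to 0.0875), for Smpd1 2-17M, 2-25M, 2-30M, 1-12M, 2-3M and 2-32M (0.0681 to 0.0805), and for Tmem192 2-17M, 2-21M, 2-25M, 2-30M, 1-12M, 2-3M and 2-32M (0.0568 to 0.101), all as adjusted p. For Ctsf they were 2-17M, 2-21M, 2-27M, 2-30M, 1-12M, 2-3M and 2-32M (adjusted p = 0.0555 to 0.110).

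Of 23 upstream regulators, 4 rose and 0 fell (median 0.04). Deptor, an inhibitor of the mTOR kinase that restrains autophagy, had 6819, 4374, 4620, 5753 and 3815 in the D257A mice and 2399, 1472, 3454, 2339 and 2150 in the WT mice. It rose by 1.13 (SE 0.20, adjusted p = 0.00543) with no overlap, and the call held without each mouse. It ended in a fit blocked on the first digit of each mouse's number, which compares the genotypes among the mice numbered 2 (0.81, adjusted p = 0.107), and under the methods' t-test on linear signals (adjusted p = 0.0537). Sesn1, a stress protein that restrains mTOR, had 11750, 5881, 7423, 4216 and 12200 in the D257A mice and 1348, 8348, 874.3, 1358 and 1140 in the WT mice. It rose by 2.15 (SE 0.50, adjusted p = 0.0199), and by 2.72 without 1-13M, which lay among the D257A mice as for Ctsl. Foxo1, a FoxO factor, rose by 1.34 (SE 0.37, adjusted p = 0.0441), and Prkab2, a subunit of the energy sensor AMPK, by 0.41 (SE 0.12, adjusted p = 0.0496). The call of Sesn1 ended without any 1 of 2-17M, 2-30M, 1-12M, 2-3M or 2-32M (adjusted p = 0.0507 to 0.0591). That of Foxo1 ended without any mouse but 1-13M and 2-32M (adjusted p = 0.0534 to 0.115), and that of Prkab2 without any but 1-13M and 2-3M (adjusted p = 0.0535 to 0.111). In the mice numbered 2, Prkab2 was at 0.19 (adjusted p = 0.348, and 0.447 with the digit as a block). The methods' t-test on log2 and linear signals ended the calls of Sesn1 (adjusted p = 0.106 and 0.173), Foxo1 (0.156 and 0.208) and Prkab2 (0.1015 and 0.1058). Quantile normalization ended those of Foxo1 (adjusted p = 0.0525) and Prkab2 (0.0793). No further scaling ended the calls of Vmp1, Ctsc, Foxo1, Prkab2 and the macrophage markers Lyz2 and Tyrobp in limma (adjusted p = 0.0501 to 0.184). Centring each array on its median ended the lower calls of Ctsf, Smpd1, Tmem192 and the muscle marker Mb in limma (adjusted p = 0.0723 to 0.169). Over the lists outside the 34 genes, the block also ended the calls of Vmp1, Ctsc, Ctsf, Smpd1, Tmem192, Foxo1 and, among the cell type markers described next, Cd163, Tyrobp, Lyz2, Mb, Col1a1 and Col3a1.

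Of 5 FoxO-driven ubiquitin ligases, which mark muscle proteins for the proteasome, 0 rose and 0 fell in limma with all mice (median 0.43), and 1 was higher at an unadjusted p under 0.05. Fbxo32, also called atrogin, had 26410, 17210, 22250, 11970 and 26920 in the D257A mice and 9262, 28270, 7127, 9942 and 4937 in the WT mice. Mouse 1-13M was the highest of the 10. On the log2 scale the fold change was 1.03 (SE 0.37, adjusted p = 0.104), and Fbxo32 rose by 1.41 without 1-13M (adjusted p = 0.00126). Trim63, another ligase of this kind, had 0.44 (SE 0.22, adjusted p = 0.243), and rose by 0.62 without 1-13M (adjusted p = 0.0274).

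Markers of other cell types differed between the genotypes. Macrophages are cells rich in cathepsins. Of 19 macrophage markers, 17 were bright enough to test, and 6 of these rose and 0 fell (median 0.45). They were Lgals3 at 1.32, Fcgr3 at 1.00, Cd163 at 0.97, Mrc1 at 0.78, Tyrobp at 0.59 and Lyz2 at 0.59. The summed signal of the list was 12150 to 17360 (D257A) and 9323 to 11350 (WT), with no overlap. On the mean log2 level of the list, 1-13M lay at 8.82 among the other WT mice (8.62 to 8.86) and below the D257A mice (8.96 to 9.36). Ctsl in 1-13M lay at the level of the D257A mice. Other defining markers had 0.02 for Cd68, 0.33 for Adgre1 and 0.20 for Csf1r, none called. The calls of Lgals3, Fcgr3 and Mrc1 held on leaving out each of the 10 mice. That of Mrc1 ended under the methods' t-test on linear signals (adjusted p = 0.0565). That of Tyrobp ended without 2-17M, 2-30M, 1-12M or 2-32M, each alone (adjusted p = 0.0505 to 0.0552), that of Cd163 without 2-30M, 1-12M or 2-3M (0.0512 to 0.0594), and that of Lyz2 without 2-17M, 2-25M, 2-30M, 1-12M, 2-32M or 3-18M (0.0761 to 0.112). The part of macrophages in the rises of Ctsl, Ctss, Ctsc and Npc2 was not tested.

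Of 14 muscle fibre markers, 0 rose and 1 fell, the oxygen store Mb by 0.35 (SE 0.09, adjusted p = 0.0353). That call ended without any mouse but 2-21M and 1-13M (adjusted p = 0.0538 to 0.0953). At an unadjusted p under 0.05, 1 marker was lower and 2 were higher, the slow fibre genes Myh7 at 0.60 (SE 0.22, adjusted p = 0.109) and Tnnt1 at 0.44 (SE 0.20, adjusted p = 0.188). The mean log2 level of the list was lowest of the 10 in 1-13M (14.79), with 14.99 to 15.20 in the other mice. Of 6 fibroblast markers, 0 rose and 3 fell, the collagens Col1a1, Col1a2 and Col3a1, and the mean log2 level of the list was 9.93 in 1-13M, 11.13 to 11.66 in the other WT mice and 9.60 to 10.21 in the D257A mice. The call of Col1a2 held without each mouse but ended under the methods' t-test on linear signals (adjusted p = 0.0683). That of Col1a1 ended without 1-12M, 2-3M, 2-32M and 3-18M, each left out alone (adjusted p = 0.0569 to 0.0770). The call of Col3a1 ended without those and also without 2-17M and 2-30M (adjusted p = 0.0517 to 0.0695). Of 7 endothelial, 4 adipocyte, 2 Schwann cell and 1 red blood cell marker tested, 0 rose and 0 fell in limma, with 1, 1, 0 and 1 higher and 0, 1, 0 and 0 lower at an unadjusted p under 0.05.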

How the data were processed

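Total RNA of gastrocnemius from 5 D257A and 5 WT mice was hybridized by the authors to 1 array per mouse. The deposited intensity values are 1 linear signal per probe set and array, for which the submitters' processing notes name GCOS 1.3. No signal algorithm is named in the sources used here. The study's supporting text states a scaling target of 500, but the trimmed means of the deposited columns, with 2% left out at each end, were 93.4 to 106 (D257A) and 94.5 to 129 (WT). Each array was therefore scaled to a trimmed mean of 500, and log2 was taken.

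Of 45101 probe sets, 64 controls were set aside, and of the other 45037, the brighter 22518 by mean log2 signal over all mice (6.26 or more) were tested. This filter does not use the genotypes. Genotypes were compared by lmFit and trended eBayes of limma 3.58.1 (R 4.3.3), without covariates and with Benjamini-Hochberg adjustment. Genes were named through GEO's platform annotation, in which 34945 probe sets name 1 gene, 932 several and 9160 none. Among probe sets that name a gene alone, the brightest by mean over all mice stands for it. From each further list, up to 4 called genes with the smallest adjusted p were named, and Ctsf, Cd163, Lyz2, Fbxo32, Trim63, Cd68, Adgre1, Csf1r, Myh7 and Tnnt1 were chosen after their values were seen. The members and lists were chosen with earlier results of these data known, and p-values are not adjusted over any list alone. The fit was tested on simulated data. The alternatives were quantile normalization, centring on the median, no further scaling, no filter, only the brightest probe sets (above the 0.75 quantile), eBayes without trend, array weights, an offset of 32, the methods' t-test on log2 and linear signals, the mean of a gene's probe sets, the mice numbered 2 only, a block on the first digit of each mouse's number, and each mouse left out. The sources used here do not say what that digit means. Replicate numbers follow accession order and pair nothing. Python 3.11.15, pandas 2.3.3, NumPy 2.4.6 and matplotlib 3.10.9 made tables and plots. The number of arrays limits the precision.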

Additional observations from a re-analysis of the deposited data

Results flagged for a closer look

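On log2 signals, 7 of 68 groups of 5 mice held 1 mouse farther from its genotype than Dixon's test allows at 95%. Chance gives that in about 1 in 20 groups. The signals printed below are linear. Groups in which a mouse stands apart only on the linear scale are not listed. WT mouse 1-13M was the highest WT mouse for Ctsl (16610, the next at 7673), Bnip3 (29600, the next at 20840) and Pik3c3 (1052, the next at 764.4). D257A mouse 2-30M was the highest of its genotype for Rb1cc1 (4894, the next at 3430) and the lowest for Fundc1 (1282, the next at 1637). D257A mouse 2-27M was the lowest of its genotype for Atg14 (401.1, the next at 579.4). WT mouse 3-18M was the lowest WT mouse for Atg9a (1343, the next at 1906).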

How the results depend on the processing

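Replicate numbers follow accession order and pair no mice, so the leading digit of the mouse number, which both genotypes share in part, served as the block. Ctsl kept its direction under every alternative run, and the median over the 34 genes stayed within 0.13, its spread between mice, except with arrays centred on their median. Over the log2 fold changes of single genes and probe sets that were followed through the alternatives, 1075 values kept their direction and side of the threshold. Of the rest, 197 lost a call, 17 gained one and 61 turned sign. The turned values belong to 17 of the 34 genes. The cause was not tested.

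All tested probe sets gave 819 higher and 843 lower calls (49.3% higher, median log2 fold change -0.03). Centring on the median gave 1599 and 418 (79.3% higher, median 0.10), so this scaling moves every fold change up; 3 member genes were then higher and their median was 0.16. Directions that turned there were Atg13 0.089, Atg9a 0.005, Atg3 0.12, Atg5 0.08, Atg7 0.107, Atg10 0.069, Gabarap 0.058, Fundc1 0.037, Pink1 0.103 and Lamp1 0.053. No further scaling gave 356 and 856 (29.4% higher, median -0.10), and turned Becn1 (-0.071), Wipi2 (-0.013), Atg4b (-0.05), Atg12 (-0.004), Atg16l1 (-0.003) and Sqstm1 (-0.047). Quantile normalization turned Becn1 (-0.033), Atg7 (0.014) and Sqstm1 (-0.074).

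Higher calls were 541 with no filter and 515 without a trend. Array weights gave 1858 and 2110, with 4 member genes higher and Atg3 at 0.028. The methods' t-test gave 540 and 493 on log2 signals and 528 and 466 on linear signals, with 0 member genes higher in both, and on linear signals Becn1 (-0.001), Atg4b (-0.026) and Gabarapl1 (-0.046) turned. Both t-tests, and limma with no further scaling, ended the calls of the dimmer probe sets of Map1lc3b and Lamp2 (adjusted p = 0.0763 to 0.274). In the mice numbered 2 alone, 895 probe sets were higher and 858 lower, and 3 member genes were higher (Map1lc3b, Bnip3 and Ctsl) and 1 lower (Ctsd, -0.41, adjusted p = 0.0193). The digit as a block gave 291 and 271, and also ended the calls of the dimmer probe sets of Map1lc3b and Lamp2. Becn1 (-0.03), Atg3 (0.123) and Atg5 (0.061) turned in both. The mean of a gene's probe sets turned Becn1 (-0.108), Wipi2 (-0.072), Atg4b (-0.05), Atg12 (-0.168) and Pink1 (0.018).

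With each mouse left out, higher calls ran from 449 without D257A mouse 2-17M to 1648 without WT mouse 1-13M, and lower calls from 401 without WT mouse 1-12M to 1780 without 1-13M. Member genes higher ran from 0 without 2-17M to 4 without 1-13M, and lower from 0 to 1 (Ulk2 without 1-13M, Ctsd without 3-18M). Genes whose direction turned ran for Atg13 from -0.186 to 0.129, Becn1 from -0.049 to 0.061, Wipi2 from -0.064 to 0.245, Atg3 from -0.05 to 0.038, Atg4b from -0.11 to 0.192, Atg7 from -0.141 to 0.044, Atg10 from -0.304 to 0.099, Atg16l1 from -0.021 to 0.145, Gabarap from -0.18 to 0.001, Gabarapl1 from -0.037 to 0.614, Sqstm1 from -0.05 to 0.146 and Pink1 from -0.084 to 0.026.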
